A study of Mus musculus with 3 samples.

Results

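Cyclins, cyclin-dependent kinases (Cdks), Cdk inhibitors and E2F factors were read across 3 sorted epithelial cell populations of C57BL/6 mice. The members were taken by gene symbol: cyclins A, B, D and E, nearly all Cdks with a plain number, the Cdkn1 and Cdkn2 inhibitors, E2F factors and their DP partners, the Cdc25 phosphatases, the retinoblastoma family and Wee1. This gave 52 of the 22609 symbols in the table. The symbol pattern for cyclin B also took in Ccnb1ip1, which encodes a ubiquitin ligase that binds cyclin B1 and is not itself a cyclin. Cortical thymic epithelial cells (cTEC) were sorted as CD45-negative, EpCAM-positive, Ly51-positive and UEA1-negative, and medullary thymic epithelial cells (mTEC) as CD45-negative, EpCAM-positive, Ly51-negative and UEA1-positive, both from the thymi of 14 mice at postnatal day 7, pooled. Skin epithelial cells (skinEC) were EpCAM-positive, CD11c-negative epidermal cells of 7 pooled newborn mice. None of the populations was treated or genetically altered according to the labels.

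A cell divides when cyclins, made and destroyed in turn, switch on their partner Cdks. D-type cyclins with Cdk4 or Cdk6 and then E-type cyclins with Cdk2 phosphorylate the retinoblastoma proteins, which frees E2F factors to turn on the genes of DNA replication, and A-type and B-type cyclins with Cdk1 and Cdk2 carry the cell through replication and mitosis. Inhibitors of the INK4 family bind Cdk4 and Cdk6, and those of the CIP/KIP family bind several cyclin-Cdk complexes. In epidermis the basal layer divides and feeds the layers above it. Mature mTEC that express Aire are known as cells that have largely left the cell cycle.

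Each population gave 1 library, so nothing could be tested against replicate spread and the values describe these libraries alone. Levels are in RPKM (reads scaled to the length of the gene and to all mapped reads of the library), which can be set side by side between genes. Ratios are log2((RPKM + 1)/(RPKM + 1)), which understates differences of low genes, and "higher" or "lower" in a count means 2-fold or more on this scale. The estimated depth was 56600000 mapped reads for cTEC, 55500000 for mTEC and 55900000 for skinEC, at which 3 reads over 1 kb amount to 0.053, 0.0541 and 0.0537 RPKM. The marker lists followed the sort labels: 7 of 7 cortical markers were at least 2-fold higher in cTEC than in mTEC, 7 of 7 medullary markers were higher in mTEC, and 6 of 6 basal keratinocyte markers were higher in skinEC than in either thymic library. Markers of leukocytes were present in mTEC. Their 9 genes summed to 1331 RPKM there, against 15.1 RPKM for cTEC and 6.89 RPKM for skinEC. In mTEC, Cd52, Laptm5 and Lyz2 were at 516, 460 and 283 RPKM, and each of the others was at 29.6 RPKM or less. The B cell markers, 5 of 5, were also higher in mTEC than in cTEC, with sums of 51.7 and 1.18 RPKM. Suprabasal keratinocyte markers summed to 204 RPKM in mTEC, 12.1 RPKM in cTEC and 4118 RPKM in skinEC. The 13 thymocyte markers summed to 25.96, 74.0 and 21.04 RPKM in cTEC, mTEC and skinEC, with 4 of them listed at 0 in skinEC and none in the thymic libraries. Tcf7 was the largest of them in every library, at 7.85, 38.6 and 15.7 RPKM in the same order. The skin and thymic mice differed in age as well as in tissue, and these cannot be told apart. In such bulk libraries a smaller share of dividing cells and less transcript per cell cannot be told apart either.

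The skin library held the most transcript of the D-type, E-type, A-type and B-type cyclins, of the cell cycle Cdks and of the Cdc25 genes. In all, 50 of the 52 members reached 1 RPKM in some library. Of these, 29 were highest in skinEC, 12 in cTEC and 9 in mTEC. Over all 16869 genes at this level, 33.9% were highest in skinEC, 26.1% in cTEC and 40.1% in mTEC. The lowest value fell in cTEC for 19 members (30.1% of all genes), in mTEC for 19 (32.9% of all genes) and in skinEC for 12 (37.0% of all genes). Against skinEC, 21 of 50 members were at least 2-fold lower in cTEC (14.3% of all genes) and 4 were higher (15.4% of all genes). Likewise 23 were at least 2-fold lower in mTEC (16.7% of all genes) and 7 were higher (34.0% of all genes). With each library scaled to the same sum, 51 members passed the filter, now with Ccnb1ip1. On that scale 16 were lower in mTEC (10.9% of all genes) and 9, Ccnb1ip1 among them, were higher (42.0% of all genes). In cTEC 18 were then lower (11.1% of all genes) and 5 higher (21.8% of all genes). At 4-fold without this scaling, 12 members were lower in cTEC than in skinEC (5.82% of all genes) and 2 higher (6.3% of all genes). For mTEC, 10 were lower (4.2% of all genes) and 4 higher (16.8% of all genes). Between the thymic libraries 35 members were within 2-fold (58.3% of all genes). Of the others, 5 were at least 2-fold higher in cTEC (10.9% of all genes) and 10 in mTEC (30.8% of all genes). At 4-fold these counts were 1 (2.69% of all genes) and 6 (15.2% of all genes). The members' median log2 ratio was 0.01 for cTEC over mTEC, -0.67 for cTEC over skinEC and -0.85 for mTEC over skinEC, beside -0.08, 0.00 and 0.16 over all genes. The members below 1 RPKM everywhere were Ccnb3, a cyclin of meiotic cells, and Ccnb1ip1.

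**Figure D1:**
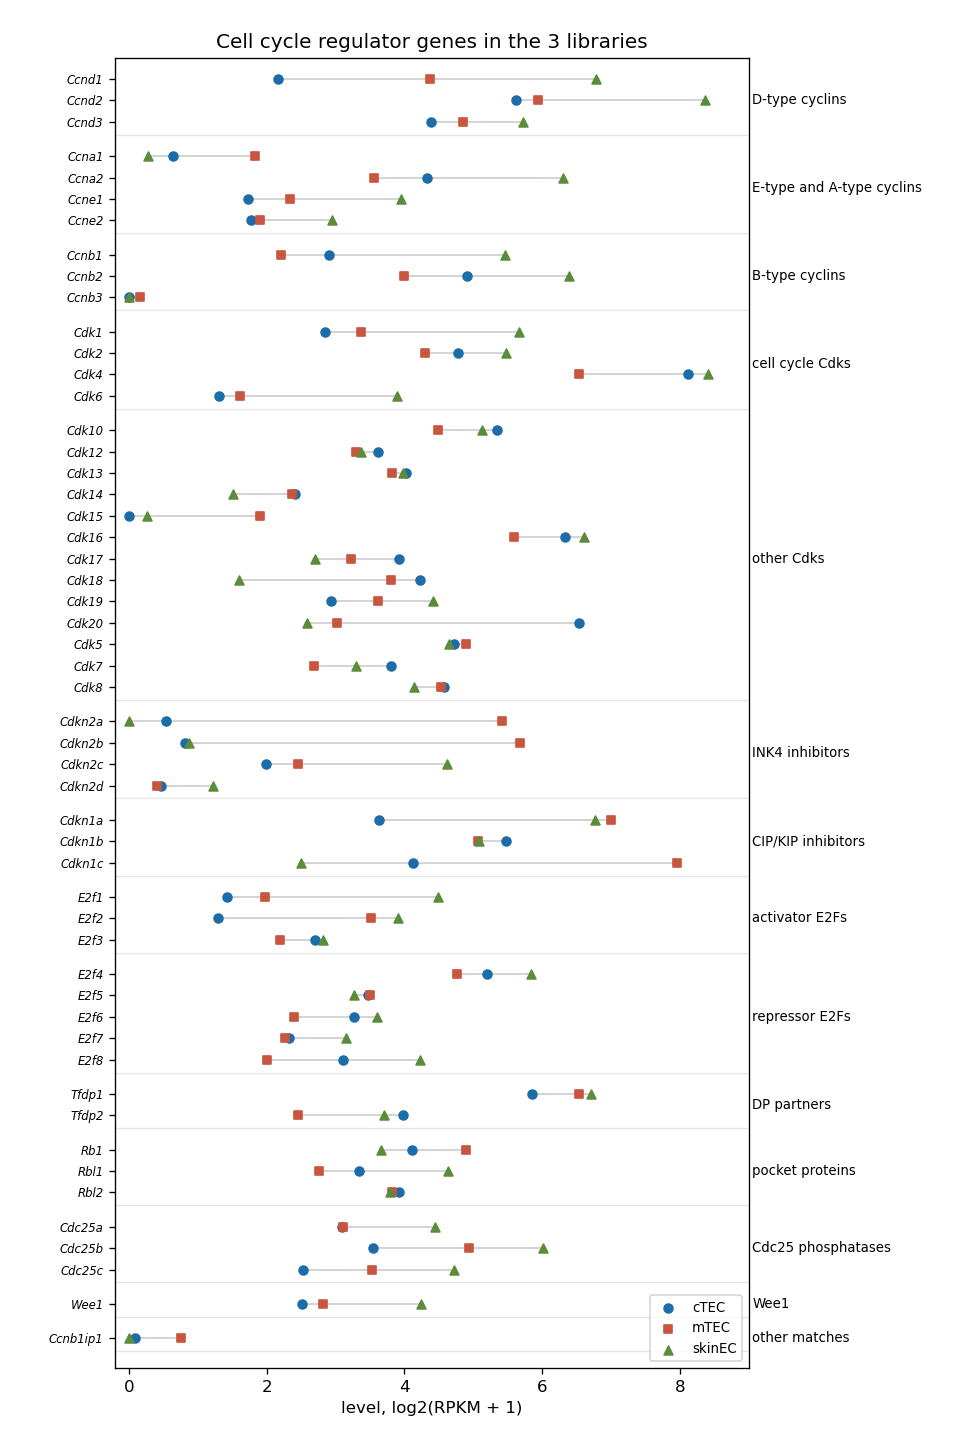
Level of each of the 52 genes, as log2(RPKM + 1) on the horizontal axis, in cTEC (circles), mTEC (squares) and skinEC (triangles), grouped by role; each point is 1 library and grey lines join the lowest and highest. The triangles lie to the right for most cyclins, for Cdk1 and Cdk6 and for the Cdc25 genes, while squares lie far to the right for Cdkn1c, Cdkn2a and Cdkn2b and a circle for Cdk20.

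The D-type cyclins, which couple growth signals to the start of the cycle, made up 24.5% of the summed RPKM of all members in skinEC, 8.81% in mTEC and 6.68% in cTEC. Ccnd1 was at 3.47 in cTEC, 19.6 in mTEC and 109 RPKM in skinEC. It thus separated all 3 libraries, with an RPKM ratio of 31.4 between skinEC and cTEC and of 5.65 between mTEC and cTEC. Ccnd2 was the most abundant D-type cyclin of every library, at 48.3 in cTEC, 60.6 in mTEC and 329 RPKM in skinEC. The thymic libraries were close to each other for Ccnd2 and both lay far below skin. Ccnd3 had the smallest spread of the family, at 19.97, 27.8 and 52.0 RPKM in the same order. The make-up of the family therefore differed between libraries. Ccnd1 took 4.83% of the D-type cyclin RPKM in cTEC, 18.1% in mTEC and 22.2% in skinEC, while Ccnd3 took 27.8%, 25.7% and 10.6%. Ccnd2 held 67.3% of the family in cTEC, 56.1% in mTEC and 67.2% in skinEC.

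Their kinase partners did not follow a common order. Cdk4 was by far the more abundant, at 277 in cTEC, 91.7 in mTEC and 338 RPKM in skinEC. This kinase was therefore within 2-fold between cTEC and skinEC and lower in mTEC than in either, with a log2 ratio of 1.58 for cTEC over mTEC. Cdk6 was at 1.48 in cTEC, 2.07 in mTEC and 13.9 RPKM in skinEC, so that it was higher in skin than in either thymic library. The level of Cdk4 was 187 times that of Cdk6 in cTEC, 44.4 times in mTEC and 24.4 times in skinEC. The combination of low Ccnd1 with a Cdk4 level close to that of skin was seen in cTEC and not in mTEC.

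The E-type cyclins, which act with Cdk2 at the entry to S phase, were low in the thymic libraries. Ccne1 was at 2.32 in cTEC, 4.05 in mTEC and 14.4 RPKM in skinEC, and Ccne2 was at 2.42, 2.75 and 6.73 RPKM. Both were at least 2-fold lower in either thymic library than in skin. The lower ratio of Ccne2 came within 2-fold when each library was scaled to the same sum (log2 ratio -0.98 for cTEC and -0.86 for mTEC over skinEC). Cdk2 was at 26.5 in cTEC, 18.7 in mTEC and 43.6 RPKM in skinEC, a narrower range than that of either E-type cyclin between cTEC and skinEC.

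The cyclins and the kinase of replication and mitosis showed the skin library furthest apart. Ccna2, the A-type cyclin of dividing somatic cells, was at 19.2 in cTEC, 10.8 in mTEC and 77.7 RPKM in skinEC. Ccnb1 was at 6.51, 3.63 and 43.1 RPKM and Ccnb2 at 29.1, 14.9 and 82.9 RPKM in the same order. All of these mitotic cyclins were lowest in mTEC, intermediate in cTEC and highest in skinEC, and the differences between the thymic libraries were under 2-fold. Cdk1, the mitotic kinase, was at 6.20 in cTEC, 9.34 in mTEC and 49.8 RPKM in skinEC. Its order in the thymic libraries was thus the opposite of that of its cyclins, again within 2-fold. Ccnb2 exceeded Ccnb1 in every library, 4.47 times in cTEC, 4.12 times in mTEC and 1.92 times in skinEC. Ccna1, the A-type cyclin known from male germ cells, broke the pattern, at 0.553 in cTEC, 2.57 in mTEC and 0.206 RPKM in skinEC. Ccnb3 had 0.115 RPKM in mTEC, and the other libraries list it at 0. Pseudogenes named after Ccnb1, Ccnb2, Ccnd3 and Tfdp1 are annotated by RefSeq and could share reads with these genes.

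The promoters of Cdk1 and of the A-type and B-type cyclins are shown, without Ccna2, for which no window was used here, because mitotic genes are known to be switched by shared elements: sites for E2F, the cell cycle genes homology region (CHR) bound by the MuvB complex, and the CCAAT box bound by NF-Y. The windows are the 150 bases before the start annotated by RefSeq on build GRCm38.p6, all on the minus strand and written 5′ to 3′ of the gene. They lie at chr10:69352913-69353062 for Cdk1, chr13:100786487-100786636 for Ccnb1, chr9:70421555-70421704 for Ccnb2, chr3:55055056-55055205 for Ccna1 and chrX:7041620-7041769 for Ccnb3. Capitals mark matches, on either strand, to the E2F-type letters TTCCCGC with their variants TTCGCGC and further TTGCCGC and also TTGGCGC, to the CHR letters TTTGAA and their variant TTCGAA, and to the box CCAAT. In Ccnb1 an E2F-type match on the minus strand overlaps a CCAAT box and both run together.
Cdk1: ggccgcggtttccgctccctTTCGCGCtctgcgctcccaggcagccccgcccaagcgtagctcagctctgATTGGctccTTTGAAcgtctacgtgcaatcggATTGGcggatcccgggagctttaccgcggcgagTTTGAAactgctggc
Ccnb1: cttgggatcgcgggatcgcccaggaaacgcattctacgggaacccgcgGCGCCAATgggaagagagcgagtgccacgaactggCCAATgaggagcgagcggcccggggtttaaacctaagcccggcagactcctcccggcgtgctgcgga
Ccnb2: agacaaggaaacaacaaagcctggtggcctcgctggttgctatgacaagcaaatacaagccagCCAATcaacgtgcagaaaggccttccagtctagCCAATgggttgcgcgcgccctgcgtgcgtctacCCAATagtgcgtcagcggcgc
Ccna1: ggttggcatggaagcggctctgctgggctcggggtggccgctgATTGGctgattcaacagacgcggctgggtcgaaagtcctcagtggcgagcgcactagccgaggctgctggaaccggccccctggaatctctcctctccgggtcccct
Ccnb3: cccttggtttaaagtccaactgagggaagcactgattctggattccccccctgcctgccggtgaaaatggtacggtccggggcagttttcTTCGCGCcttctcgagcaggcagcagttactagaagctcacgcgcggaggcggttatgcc

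Matches were counted from 250 bases before to 50 after a start, a longer window than the stretches printed above. In it Cdk1 and Ccnb2 each held 3 CCAAT boxes, Ccnb1 held 2, Ccna1 held 1 and Ccnb3 held none. For Cdk1, 1 of these boxes, at -208, lay outside the printed stretch. Members with several boxes were not all highest in the same library. Cdkn1b with 3 and Cdk10 with 2 were highest in cTEC. Highest in skinEC, like Cdk1, Ccnb1 and Ccnb2, were Cdc25a and E2f7 with 2. So were E2f2, E2f3 and Cdk16, with 3 in their richer window. E2f1, Ccne1, Cdk4 and Cdk6, also highest in skinEC, held none. A link between the number and the library was not tested. Cdk1 had CHR letters at positions -71 and -15 from the start. Ccnb2 had them at -167 and at position 4 counted from the start base as 0, both outside its printed stretch. The first bases from this Ccnb2 start were found in no GENCODE transcript of the gene, while those of the other printed starts were. Positions from it are therefore less certain. Over the 48 RefSeq windows of 39 members, which run from 250 bases before to 50 after a start, 29.2% held E2F-type letters, against 9.57% of all 32851 windows. CHR letters were in 18.8% of member windows and 19.2% of all, and CCAAT in 41.7% and 37.4%. A match of letters is a description of the window and not a bound site.

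**Figure D2:**
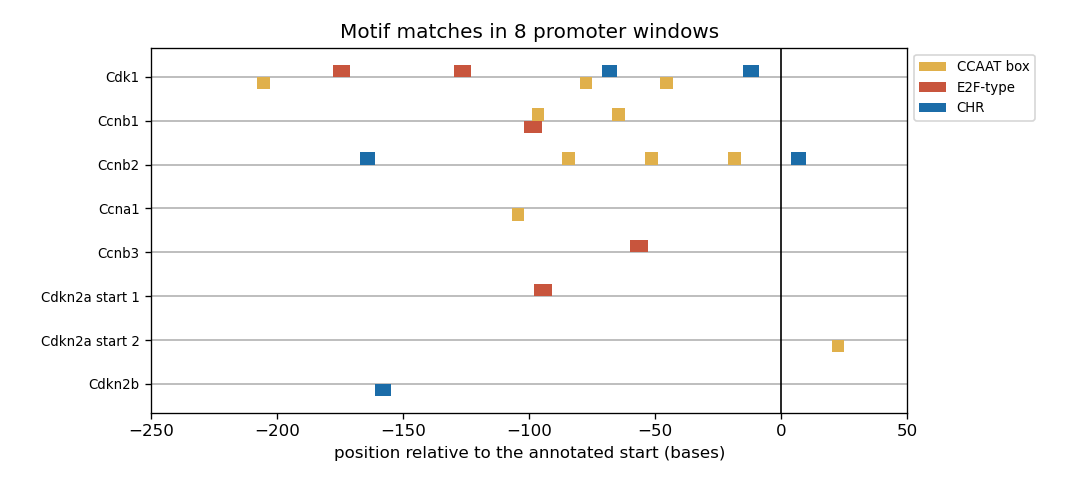
Matches to E2F-type, CHR and CCAAT letters in 8 promoter windows, each from 250 bases before to 50 after the annotated start. The position from that start in bases is on the horizontal axis. Boxes above a line are on the strand of the gene and boxes below it on the other strand. Cdk1 and Ccnb2 carry 3 CCAAT boxes and 2 CHR matches each, and the windows of Cdkn2a and Cdkn2b carry 1 match each.

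The phosphatases and the kinase that set Cdk1 and Cdk2 activity moved with skin. Cdc25a, which acts from the start of S phase, was at 7.53 in cTEC, 7.59 in mTEC and 20.9 RPKM in skinEC, with a log2 ratio of -0.01 between the thymic libraries. Cdc25b was at 10.7, 29.6 and 63.4 RPKM and Cdc25c at 4.78, 10.6 and 25.3 RPKM. These mitotic phosphatase genes therefore ranked cTEC below mTEC, the reverse of the mitotic cyclins, although Cdc25c stood just past the 2-fold line and came within it (log2 ratio -0.97 for cTEC over mTEC) under median-of-ratios scaling. Wee1, the kinase that opposes Cdc25, was also highest in skinEC, at 17.9 RPKM against 4.71 RPKM in cTEC and 6.08 RPKM in mTEC. Its mitotic relative Pkmyt1 was at 6.71 in cTEC, 9.19 in mTEC and 52.9 RPKM in skinEC.

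Genes outside the member list that mark DNA replication and mitosis showed where the engine genes stood. All 18 S phase genes of a list were at least 2-fold lower in cTEC than in skinEC (14.3% of all genes), with a median log2 ratio of -2.46. All 18 were also lower in mTEC (16.7% of all genes), with a median of -2.55. Mcm5, a subunit of the replicative helicase, was at 12.5 in cTEC, 11.5 in mTEC and 139 RPKM in skinEC. Of 20 G2 and mitotic genes, 17 were at least 2-fold lower in cTEC than in skinEC and 19 in mTEC (14.3% and 16.7% of all genes). Their medians were -1.99 and -2.40, and Top2a was at 17.2, 15.7 and 159 RPKM. Between the thymic libraries these lists lay close, with medians of 0.19 and 0.34. Of their 38 genes, 1 was at 2-fold or more. Of all genes, 10.9% were higher in cTEC and 30.8% in mTEC by this rule. Of 18 ubiquitin ligase and Cks genes, 7 were lower and 2 higher in cTEC than in skinEC (14.3% and 15.4% of all genes), and 9 were lower and 0 higher in mTEC (16.7% and 34.0% of all genes). Ube2c, a mitotic conjugating enzyme gene, was at 12.2, 9.33 and 137 RPKM, and Fbxw7, whose product marks cyclin E for destruction, at 39.1, 11.3 and 11.3 RPKM. Of 8 MuvB and mitotic transcription genes, 4 were lower than in skinEC in each thymic library (14.3% of all genes for cTEC and 16.7% for mTEC). Foxm1, an activator of mitotic genes, was at 15.2 in cTEC, 4.09 in mTEC and 38.5 RPKM in skinEC.

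**Figure D3:**
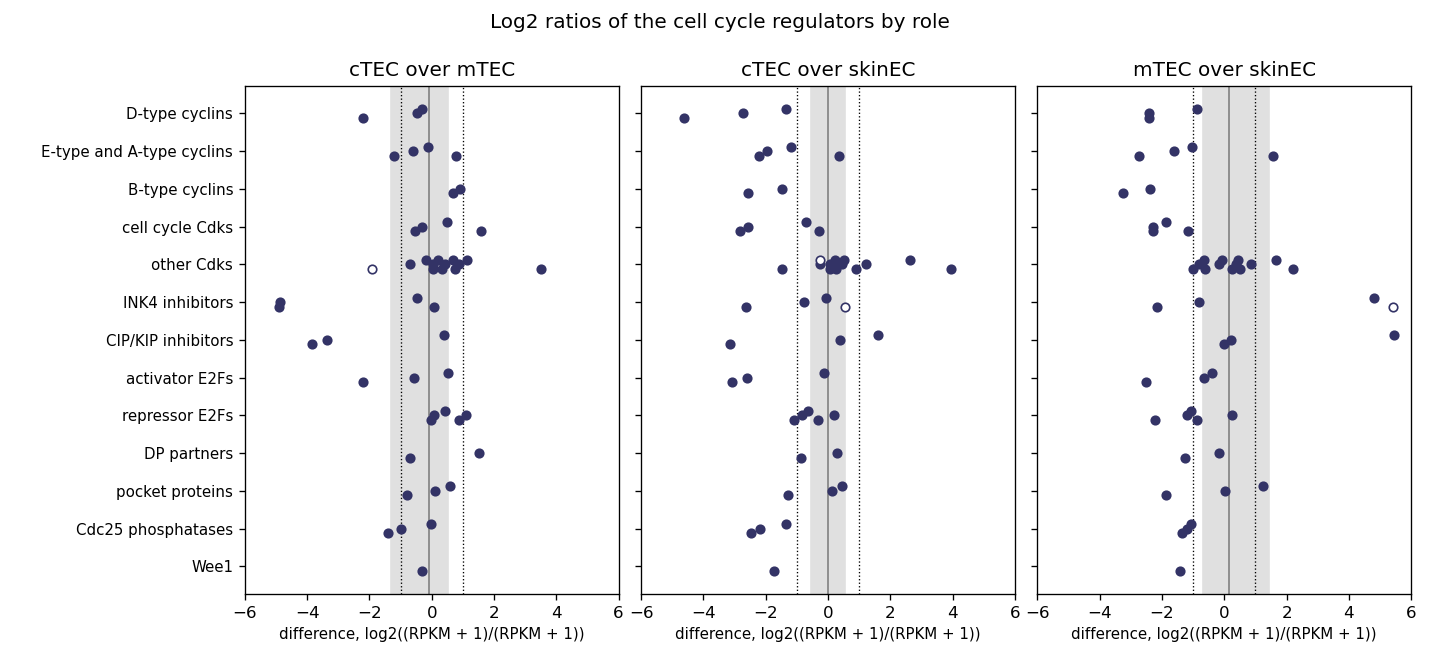
Log2 ratio of RPKM + 1 for each of the 50 members that reached 1 RPKM in some library, by role, in the 3 comparisons; grey bands hold the middle 50% of all genes, grey lines their median, dotted lines the 2-fold rule, and open points have a library listed at 0. Cyclins other than Ccna1, cell cycle Cdks and Cdc25 genes lie to the left against skinEC, and Cdkn1c, Cdkn2a and Cdkn2b lie near or beyond 4 in size toward mTEC in both comparisons that include it.

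The Cdk inhibitors included the members highest in mTEC relative to the other libraries. Their 7 genes summed to 502 RPKM for mTEC, 75.7 RPKM for cTEC and 171 RPKM for skinEC, while the D-type cyclins summed to 108, 71.8 and 490 RPKM. The inhibitor sum was therefore 4.65 times the D-type cyclin sum in mTEC but 1.06 times in cTEC and 0.348 times in skinEC. Cdkn1c, which encodes p57 and is imprinted, was the most abundant member of mTEC, at 246 RPKM against 16.4 RPKM in cTEC and 4.67 RPKM in skinEC. The RPKM ratio was 15.0 over cTEC and 52.7 over skinEC. Cdkn1a, which encodes p21 and is a classic target of p53, was at 11.4 in cTEC, 126 in mTEC and 108 RPKM in skinEC. Here cTEC stood apart, 11.1 times below mTEC and 9.44 times below skinEC. Cdkn1b, which encodes p27, was nearly level, at 43.4 in cTEC, 32.5 in mTEC and 32.8 RPKM in skinEC. As a result each library had another leading CIP/KIP gene: Cdkn1b with 61.0% of the family's RPKM in cTEC, Cdkn1c with 60.8% in mTEC and Cdkn1a with 74.2% in skinEC.

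Among the INK4 genes, Cdkn2a had 0.447 RPKM in cTEC and 41.9 RPKM in mTEC, while skinEC lists it at 0. Cdkn2b, which encodes p15, was at 0.761 in cTEC, 50.1 in mTEC and 0.822 RPKM in skinEC. Both were thus near the bottom of the range outside mTEC, and the log2 ratios for cTEC over mTEC were -4.89 and -4.86, the lowest of all members in that comparison. Cdkn2c, which encodes p18, had another order, at 2.97 in cTEC, 4.47 in mTEC and 23.5 RPKM in skinEC. Cdkn2d, which encodes p19 of the INK4 family, was low everywhere, at 0.383, 0.326 and 1.34 RPKM. Cdkn2b took 51.8% and Cdkn2a 43.3% of the INK4 RPKM in mTEC, whereas Cdkn2c took 65.1% in cTEC and 91.6% in skinEC. Set against their targets, the INK4 genes summed to 1.03 times Cdk4 plus Cdk6 in mTEC, 0.0164 times in cTEC and 0.0729 times in skinEC. The leukocyte markers given above moved in the same direction, higher in mTEC than in cTEC for 7 of 9 (30.8% of all genes) with none listed at 0. Their part in the inhibitor levels was not tested.

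Cdkn2a has 2 annotated starts, of which the upstream belongs to the transcript of the Arf protein and the downstream to that of p16. The RPKM of the gene does not separate them. The 150 bases before each, with the window of the neighbouring Cdkn2b, are shown as the locus that was high in mTEC, with the same letters in capitals. On GRCm38.p6 and the minus strand they lie at chr4:89294620-89294769 for the upstream start, chr4:89282193-89282342 for the downstream start and chr4:89311033-89311182 for Cdkn2b.
Cdkn2a upstream start: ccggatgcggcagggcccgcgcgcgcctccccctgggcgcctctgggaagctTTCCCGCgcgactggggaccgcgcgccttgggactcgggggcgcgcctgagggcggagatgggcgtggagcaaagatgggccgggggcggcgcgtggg
Cdkn2a downstream start: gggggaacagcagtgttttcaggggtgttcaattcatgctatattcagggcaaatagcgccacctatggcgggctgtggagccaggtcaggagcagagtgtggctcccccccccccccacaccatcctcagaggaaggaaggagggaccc
Cdkn2b: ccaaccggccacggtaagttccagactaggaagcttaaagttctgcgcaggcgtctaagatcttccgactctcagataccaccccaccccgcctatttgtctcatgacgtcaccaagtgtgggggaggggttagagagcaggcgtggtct
The upstream start held E2F-type letters, and these stretches before the downstream start and before Cdkn2b held none of the letters searched.

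**Figure D4:**
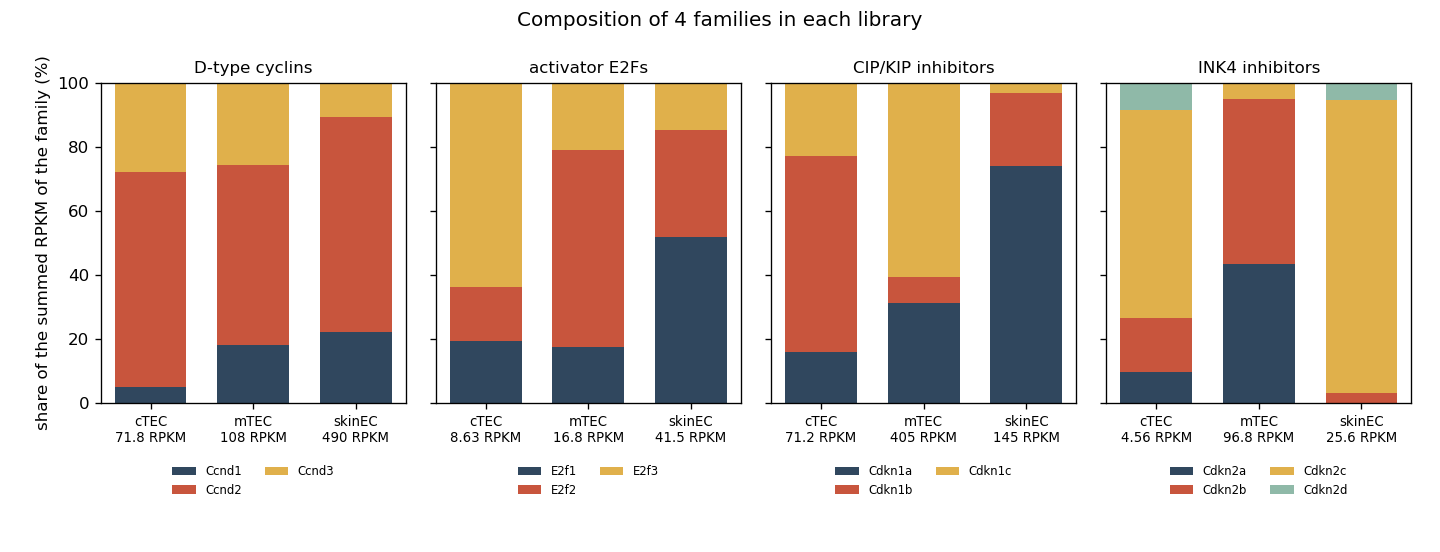
Share of each gene in the summed RPKM of its family, in percent, for D-type cyclins, activator E2Fs, CIP/KIP inhibitors and INK4 inhibitors in the 3 libraries, with the summed RPKM under each bar. Ccnd2 leads the D-type cyclins throughout, while the leading inhibitor differs between libraries: Cdkn1b, Cdkn1c and Cdkn1a for CIP/KIP in cTEC, mTEC and skinEC.

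The p53 pathway list, drawn up beside Cdkn1a, held genes of differing order, and the part of p53 in the level of Cdkn1a was not tested. Of 12 p53 target genes, mTEC exceeded cTEC by 2-fold or more for 2 (30.8% of all genes) and 1 was higher in cTEC (10.9% of all genes). The median log2 ratio was -0.42 for cTEC over mTEC, beside -0.08 over all genes. Plk2, a kinase gene, had the order of Cdkn1a, at 6.18 in cTEC, 78.7 in mTEC and 42.6 RPKM in skinEC. Gadd45a was also at least 2-fold higher in mTEC than in cTEC, at 25.7, 60.8 and 11.5 RPKM, with its lowest value in skinEC. Sesn1 had its lowest value in mTEC, at 39.2, 8.32 and 20.2 RPKM. Against skinEC, 5 of the 12 were higher and 3 lower in cTEC (15.4% and 14.3% of all genes), and 5 were higher and 3 lower in mTEC (34.0% and 16.7% of all genes).

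The activator E2Fs, which drive the genes of S phase, summed to 8.63 in cTEC, 16.8 in mTEC and 41.5 RPKM in skinEC. E2f1 was at 1.67 in cTEC, 2.92 in mTEC and 21.4 RPKM in skinEC, a ratio of 12.8 between skinEC and cTEC. E2f2 was at 1.46, 10.4 and 13.9 RPKM, so that mTEC was within 2-fold of skin and cTEC was not. E2f3 was at 5.498, 3.55 and 6.07 RPKM and differed by under 2-fold in every pair. Each library thus had its own leading activator: E2f3 with 63.7% of the family in cTEC, E2f2 with 61.6% in mTEC and E2f1 with 51.7% in skinEC.

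Of the repressor E2Fs, 3 of 5 were at least 2-fold lower in mTEC than in skinEC (16.7% of all genes). It was 1 of 5 once each library was scaled to the same sum (10.9% of all genes). E2f4, which acts with the pocket proteins in resting cells, was at 35.6 in cTEC, 26.3 in mTEC and 56.2 RPKM in skinEC, between 53.9% and 55.4% of the summed repressor E2Fs in every library. E2f5 was at 10.1, 10.3 and 8.60 RPKM and E2f6 at 8.67, 4.26 and 11.1 RPKM. The atypical repressors curb E2F targets late in S phase. E2f7 was at 4.03, 3.83 and 7.87 RPKM, and E2f8 at 7.65, 3.01 and 17.6 RPKM. Both had the same order, with a wider spread for E2f8, while E2f5 alone of the repressors was lowest in skinEC. Activator E2Fs amounted to 0.131 of the repressor sum in cTEC, 0.354 in mTEC and 0.409 in skinEC. Of the DP partners, with which most E2Fs bind DNA, Tfdp1 was at 56.6, 91.6 and 103 RPKM, and Tfdp2 at 14.7 in cTEC, 4.47 in mTEC and 11.9997 RPKM in skinEC. Tfdp2 was thus lowest in mTEC, with a log2 ratio of 1.53 for cTEC over mTEC.

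The pocket proteins hold E2Fs in check. Rb1 was highest in mTEC, at 28.8 RPKM against 16.3 RPKM in cTEC and 11.6 RPKM in skinEC. Rbl1, which encodes p107 and is itself an E2F target, had the reverse order, at 9.12 in cTEC, 5.75 in mTEC and 23.7 RPKM in skinEC. Rbl2, which encodes p130, was level at 14.2, 13.1 and 12.8 RPKM. Of the pocket protein RPKM, Rb1 accordingly made up 41.1% in cTEC, 60.5% in mTEC and 24.2% for skinEC, where Rbl1 made up 49.2%.

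Of the 13 Cdks outside the core cycle, 10 were within 2-fold between cTEC and mTEC, as were 58.3% of all genes. The kinases of transcription differed among themselves. Cdk12 and Cdk13, which phosphorylate RNA polymerase II, stayed within 2-fold in every pair, at 11.3, 8.80 and 9.30 RPKM and at 15.3, 13.1 and 14.8 RPKM in cTEC, mTEC and skinEC. Cdk8 of the Mediator complex was at 22.9, 22.0 and 16.5 RPKM. Its close relative Cdk19 had another order, at 6.66, 11.3 and 20.4 RPKM. Cdk7, which activates other Cdks and belongs to TFIIH, was at 13.0 in cTEC, 5.42 in mTEC and 8.85 RPKM in skinEC. Its partner genes Ccnh (19.5, 8.70 and 13.8 RPKM) and Mnat1 (18.3, 11.2 and 17.9 RPKM) had their lowest value in mTEC as well. Cdk5, best known from neurons, was level at 25.3, 28.8 and 24.0 RPKM, and Cdk10 was at 39.7, 21.4 and 34.0 RPKM.

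The PCTAIRE kinases differed from each other. Cdk16 was at 79.8 in cTEC, 47.1 in mTEC and 96.2 RPKM in skinEC, Cdk17 at 14.1, 8.30 and 5.52 RPKM, and Cdk18 at 17.8, 13.0 and 2.03 RPKM. Cdk18 was therefore a gene of both thymic libraries, 8.74 times higher in cTEC and 6.39 times higher in mTEC than in skinEC. Of the PFTAIRE kinases, Cdk14 was at 4.31, 4.17 and 1.85 RPKM. Cdk15 had 2.75 RPKM in mTEC and 0.194 RPKM in skinEC, while cTEC lists it at 0.

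Cdk20, a kinase linked to cilia and Hedgehog signalling, was the outstanding Cdk of the cortex. It was at 91.9 in cTEC, 7.14 in mTEC and 5.03 RPKM in skinEC. The other libraries lay close together, and cTEC was 12.9 times above mTEC and 18.3 times above skinEC. Each was the highest ratio of cTEC over that library among members above 0 in both. Cdk20 alone of the 50 members was at least 4-fold higher in cTEC than in mTEC (2.69% of all genes). Next to it among protein-coding genes in RefSeq order, the cathepsin L gene Ctsl was at 3967 in cTEC, 211 in mTEC and 63.4 RPKM in skinEC. On the other side 1190003K10Rik had 0.0483 RPKM in cTEC and 0.0657 RPKM in mTEC, while skinEC lists it at 0. A long non-coding RNA overlaps Cdk20. The strand setting of the counting is not given in the sources used here, and the part of these neighbours in the value was not tested.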

How the data were processed

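RNA of 3 sorted populations was sequenced, with 1 library each from pooled mice. By the headers of the deposited table, its values are RPKM computed by the authors. CASAVA 1.8.2 and build mm9 appear, with no role, in the submitters' processing notes. The aligner, the annotation and any counting by strand were not given in the sources used here. The first sheet of the workbook was used (22663 rows); for 47 symbols on several rows, none a member, only the row of largest sum entered. Ratios used a pseudocount of 1 RPKM over the 16869 genes that reached 1 RPKM in some library, computed with Python 3.11.15 and pandas 2.3.3. Depth came from the steps of low RPKM values of olfactory, vomeronasal, trace amine and bitter taste receptor genes with a single GENCODE coding length. Whole reads, within 0.02 reads, were found in cTEC for 30 of 46 such genes, in mTEC for 328 of 431 and in skinEC for 5 of 11, so the depth of skinEC is the least certain. The search was tested on simulated data with whole reads for every gene and with more genes than skinEC offered. That test does not cover these libraries, where only part of the genes fitted whole reads. All 52 members matched RefSeq by Entrez number, and 15 overlap another protein-coding gene there, so their reads may be shared. Promoter windows are RefSeq's, on GRCm38.p6, which is not the authors' build. The members and lists were chosen with earlier results of these data known. By the naming rule every member at 1 RPKM or more in some library is given with its values, and of each other list at most the 3 genes with the largest ratios at 10 RPKM or more. Mnat1, the genes beside Cdk20 and beside the inhibitors, Wee2 and Cdk5r1 were named after their values were seen, as were the promoters of Cdkn2a and Cdkn2b.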

Additional observations from a re-analysis of the deposited data

How the results depend on the processing

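The limit of these data is 1 library per population: no library can be left out without losing its group, and values near the level of 3 reads over 1 kb cannot be ranked. No paired analysis was possible because each population had 1 library. The members' median log2 ratio over skinEC was -0.79 for cTEC with a pseudocount of 0.1 or 0.01 RPKM, and -0.96 and -0.97 for mTEC. With either, 7 in place of 4 members were at least 2-fold higher in cTEC than in skinEC, since low genes then pass more easily. The share of all genes rose as well, from 15.4% to 22.8% with 0.1 RPKM and to 26.5% with 0.01 RPKM. With every library scaled to the same sum these medians were -0.35 and -0.57, and -0.47 and -0.65 when the 50 largest genes were left out of the sum. The first scaling moved the median of all genes from 0.00 to 0.17 and from 0.16 to 0.58, so that relative to all genes the members lay at -0.52 in place of -0.67 and at -1.15 in place of -1.01. No member past 2-fold changed its direction under any of these settings, a filter of 5 RPKM, no filter, median-of-ratios scaling, summed rows or without Ccnb1ip1. Under the 4-fold rule 7 members were apart between cTEC and mTEC, 14 between cTEC and skinEC and 14 between mTEC and skinEC, in place of 15, 25 and 30. Of all genes, 2.69% were then higher in cTEC than in mTEC and 15.2% lower. Over skinEC, 6.3% were higher and 5.82% lower in cTEC, and 16.8% higher and 4.2% lower in mTEC. The DP partners, with a median of -0.29 for cTEC over skinEC, lay at 0.07 on the scale of equal sums. For mTEC over skinEC, the Cdks outside the core cycle went from 0.25 to -0.07 with the filter of 5 RPKM. The pocket proteins went from 0.03 to -0.002 under median-of-ratios scaling.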

Other observations

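Genes beside the inhibitors that were high in mTEC had mixed values. Next to Cdkn2a and Cdkn2b in RefSeq order, Mtap, an enzyme gene of methionine salvage, was lower in mTEC, at 5.07 RPKM against 12.7 RPKM in cTEC and 13.9 RPKM in skinEC. On the other side Dmrta1 was at 5.29 in cTEC, 1.31 in mTEC and 0.00879 RPKM in skinEC. Around Cdkn1c, the potassium channel gene Kcnq1 was at 0.367, 21.6 and 0.118 RPKM and the taste channel gene Trpm5, known from tuft cells, at 3.44, 159 and 0.0204 RPKM in cTEC, mTEC and skinEC. Slc22a18 on the far side was at 4.74, 19.6 and 6.03 RPKM with Phlda2 at 0.216, 1.69 and 2.48 RPKM and Nap1l4 at 74.8, 68.9 and 110.4 RPKM behind it. Tssc4, beyond Trpm5, was at 19.8, 31.1 and 25.02 RPKM. Of these 6 neighbours of Cdkn1c, Trpm5, Kcnq1 and Slc22a18 were at least 2-fold higher in mTEC than in both other libraries. Over all genes, 30.8% were higher by this rule in mTEC than in cTEC and 34.0% than in skinEC. These neighbours were looked up after the values of the inhibitors were seen.

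Among 15 partner and modifier genes of Cdks, mTEC exceeded cTEC by 2-fold or more for 3 (30.8% of all genes) and fell short of it for 2 (10.9% of all genes). The median log2 ratio was 0.13 for cTEC over mTEC. Ccno, a cyclin gene needed for multiciliated cells, was at 27.2 in mTEC, 3.20 in cTEC and 0.668 RPKM in skinEC. Wee2, the germ cell relative of Wee1, had 9.29 RPKM in mTEC against 0.245 RPKM in cTEC, while skinEC lists it at 0. Cdk5r1, which encodes the neuronal activator of Cdk5, was at 0.735, 5.53 and 0.541 RPKM in cTEC, mTEC and skinEC. Cdkn3, a phosphatase gene of the mitotic programme, had the opposite order in the thymus, at 10.1 in cTEC, 3.03 in mTEC and 30.01 RPKM in skinEC. Wee2 and Cdk5r1 were singled out after their values were seen.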
